A study of Mus musculus with 2 samples.

Results

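The vascular basement membrane is described here through 10 genes. Col4a1, Col4a2, Col18a1, Lama4, Lamb1, Lamc1, Nid1, Nid2 and Hspg2 encode structural proteins of it, and Sparc encodes a secreted collagen-binding protein. They were chosen by gene symbol, and all 10 were present among the 32285 genes of the files. Their transcripts were counted by single-cell RNA sequencing in mouse retinas at postnatal day 6, after CD31 beads had been used to enrich endothelial cells. A control library (genotype Alk1f/f) was set against a library labelled as an endothelial knockout (Alk1f/f Cdh5 CreERT2, called Alk1 ECKO). In this model a tamoxifen-dependent Cre recombinase under the endothelial Cdh5 promoter acts on the floxed gene for ALK1, a BMP receptor of endothelial cells whose loss leads to arteriovenous malformations. Both libraries carry the floxed alleles. The sources used here do not give the agent and time of induction, the strain, the sex or how many animals were pooled.

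A basement membrane is the thin sheet of matrix on which endothelial cells sit and in which pericytes are embedded. Laminin trimers and collagen IV trimers form its 2 networks, nidogens and the proteoglycan perlecan join them, and integrins and dystroglycan hold cells to it. In the growing retina, sprouting endothelial cells and the pericytes that follow them deposit this sheet together, on a template laid by astrocytes.

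There was 1 library per genotype, so no test of genotype was possible and each difference is between 2 single libraries. The control library held 8739 barcodes with 54800465 transcript molecules (UMIs) and the Alk1 ECKO library 5308 barcodes with 62728605 UMIs, and 20 barcodes occurred in both, 14 of them among retained cells. After filtering, 313 control and 1262 Alk1 ECKO cells were endothelial, 11 and 148 were mural, 636 and 164 were Müller glia or late progenitors, and 24 and 36 were astrocytes; these numbers follow the CD31 enrichment and are not those of the tissue. All 20 endothelial markers were detected in the endothelial cells of both libraries and all 16 mural markers in the mural cells. Acvrl1, which encodes ALK1, stood at 115 UMIs per 1000000 (CPM) in the control and 119 CPM in Alk1 ECKO endothelial cells. The floxed exons are not named in the sources used here, and a 3' tag outside them does not check the deletion, so the genotype rests on the label. Low counts of a mural marker list moved with genotype inside the endothelial class: its summed level was 11.3 CPM in control, where Pdgfrb, Kcnj8, Cspg4 and Des were at 0, and 99.6 CPM in Alk1 ECKO. A shorter set of mural markers was counted per cell: Pdgfrb, Rgs5, Kcnj8, Abcc9, Notch3, Cspg4 and Vtn. At least 2 UMIs of that set were found in 1.28% of the control and 5.78% of Alk1 ECKO endothelial cells. The ratios below were also taken without those cells, and the closing section gives the outcome. The part of the other mural markers in the ratios was not tested.

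Levels are UMIs of a gene summed over the cells of a class in a library, per 1000000 UMIs of that class. Intervals are exact 95% intervals and cover counting error only, not the spread between animals. Since the libraries count 3' ends, a level does not grow with transcript length as it would for fragments along a transcript, but genes can still differ in how well their ends are captured. The 10 genes together gave 0.972% of all UMIs of control endothelial cells and 0.966% in Alk1 ECKO, 9724 CPM (9664 to 9784) and 9658 CPM (9627 to 9689). Mural cells gave 10322 CPM (9805 to 10860) in the control and 7423 CPM (7314 to 7532) in Alk1 ECKO. In Müller glia or late progenitors the sum was 871 and 1063 CPM, most of it Sparc. Rod photoreceptors, which are not a source of vascular basement membrane and are used here as the level of free RNA, gave 42.7 CPM in the control and 82.3 CPM in Alk1 ECKO.

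**Figure D1:**
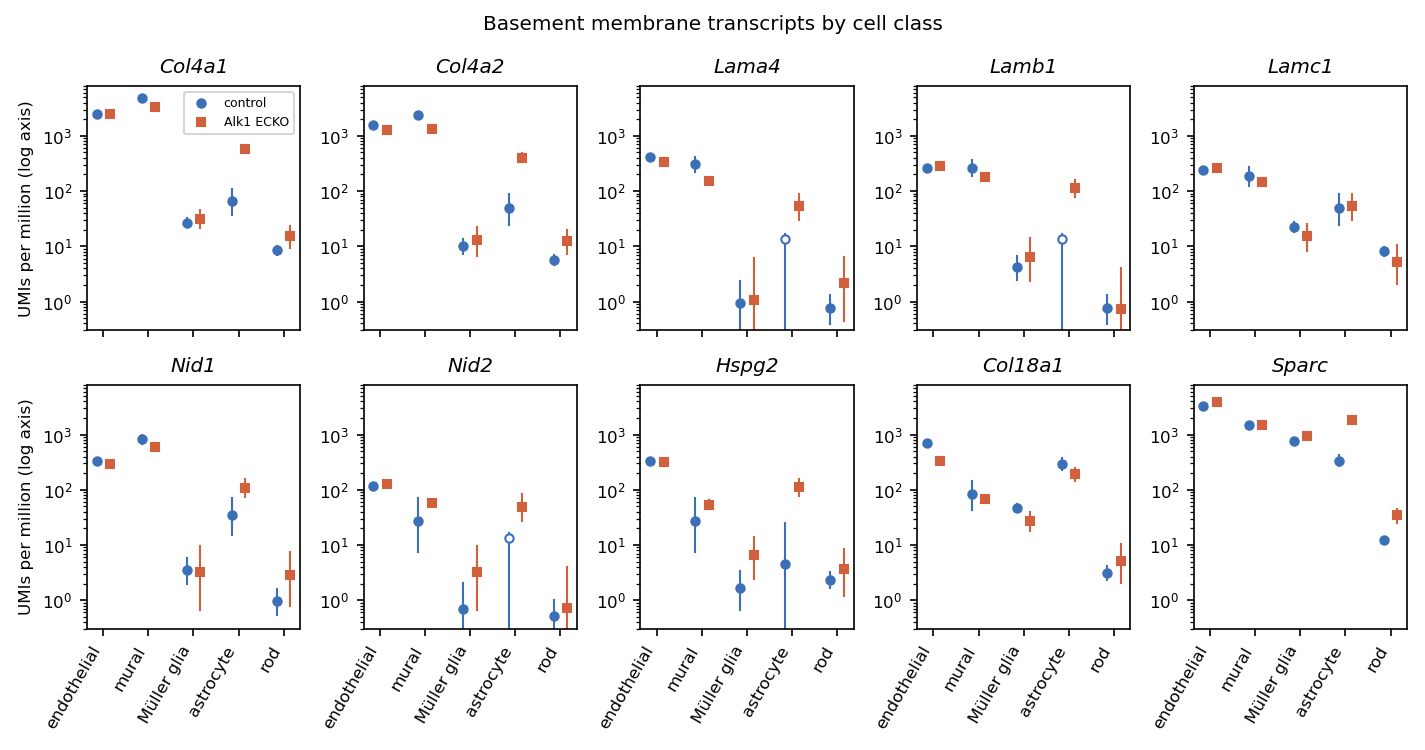
Level of each of the 10 genes in 5 cell classes of the control (blue circles) and Alk1 ECKO library (red squares), in CPM on a log axis, with exact 95% counting intervals; hollow symbols stand at the limit allowed by 0 UMIs. Collagen IV, laminin and nidogen transcripts lie in endothelial and mural cells far above rods, while Sparc is also high in glia, and 1 cell held most of the collagen IV UMIs of Alk1 ECKO astrocytes.

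Collagen IV, the network-forming collagen of all basement membranes, is a trimer of 2 Col4a1 chains and 1 Col4a2 chain. The 2 genes stand head to head on mouse chromosome 8 (mm10), Col4a1 (ENSMUSG00000031502) at chr8:11198423-11312826 on the minus strand and Col4a2 (ENSMUSG00000031503) at chr8:11312805-11449287 on the plus strand. Their annotated starts lie 21 bases apart. The promoter windows of RefSeq (GRCm38.p6; 250 bases before and 50 after the start) therefore overlap over 78 bases, shown in capitals below because both genes are read out from this stretch, 1 on each strand. The Col4a1 window is chr8:11312777-11313076 and the Col4a2 window chr8:11312555-11312854.
Col4a1: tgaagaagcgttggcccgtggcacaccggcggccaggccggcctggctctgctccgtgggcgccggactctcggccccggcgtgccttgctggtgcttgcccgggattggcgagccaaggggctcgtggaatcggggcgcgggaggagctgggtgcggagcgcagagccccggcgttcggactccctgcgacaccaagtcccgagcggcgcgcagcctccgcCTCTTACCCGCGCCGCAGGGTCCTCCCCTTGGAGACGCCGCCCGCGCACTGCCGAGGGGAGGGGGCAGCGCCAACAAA
Col4a2: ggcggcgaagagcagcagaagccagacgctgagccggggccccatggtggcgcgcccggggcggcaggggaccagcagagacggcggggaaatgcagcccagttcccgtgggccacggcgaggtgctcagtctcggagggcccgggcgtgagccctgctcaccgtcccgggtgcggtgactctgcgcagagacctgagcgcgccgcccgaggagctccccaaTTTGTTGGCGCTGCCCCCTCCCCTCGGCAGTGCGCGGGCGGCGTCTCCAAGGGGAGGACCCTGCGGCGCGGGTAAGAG

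Of the 10 genes, 7 had such a window, 8 windows in all, since Col18a1 had 2; Lama4, Lamc1 and Nid2 were not matched. A GC box (GGGCGG on either strand) was present in 6 of the 8 windows and in 35.7% of all 32851 windows of the same length. The 1 GC box of the Col4a1 window lies in the overlap with the Col4a2 window and was counted in each. GC content ran from 55.3% (Sparc) to 74% (Col4a1) over the 8 windows, against a median of 52.7% over all. Its part in the motif matches was not tested. The CCAAT box (CCAAT on either strand) was present in 5 of the 8 and in 37.4% of all. A TATA box (TATAAA on either strand) was present in 0 of the 8 and in 13.6% of all. GGCGCC, a GC-rich element that BMP-activated SMAD proteins can bind, was present in 3 windows, those of Col4a1, Lamb1 and Hspg2, and in 11.9% of all. Each motif was searched for by itself, so that matches of different motifs could overlap, and a match is a description of letters and not a binding site.

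Col4a1 was the most abundant of the 10 transcripts in mural cells and the second in endothelial cells. Its level was 4787 CPM in the control and 3342 CPM in Alk1 ECKO mural cells, 2485 and 2475 CPM in endothelial cells, 26.8 and 31.5 CPM in Müller glia or late progenitors, and then 8.43 and 15.3 CPM in rods. Col4a2 stood at 2348 and 1350 CPM in mural cells, 1554 and 1291 CPM in endothelial cells and 10.0 and 13.0 CPM in Müller glia or late progenitors. Both chains thus had their higher level in mural cells in control, where the counting intervals did not overlap those of endothelial cells. In Alk1 ECKO this held for both chains, for Col4a2 only narrowly. The Col4a2 level there was 1350 CPM (1303 to 1397) in mural and 1291 CPM (1279 to 1302) in endothelial cells.

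The 3 laminin genes encode the chains of laminin 411, the early endothelial laminin: Lama4 the alpha chain, Lamb1 the beta chain and Lamc1 the gamma chain. Lama4 (ENSMUSG00000019846, chr10:38965515-39110188, plus strand) was at 409 CPM in the control and 341 CPM in Alk1 ECKO endothelial cells and at 305 and 150 CPM in mural cells. Lamb1 (ENSMUSG00000002900, chr12:31265234-31329644, plus strand) was at 262 and 290 CPM in endothelial and 263 and 182 CPM in mural cells. Lamc1 (ENSMUSG00000026478, chr1:153218922-153332786, minus strand) was at 245 and 257 CPM in endothelial and 187 and 149 CPM in mural cells. The control levels of Lamb1 and Lamc1 in the 2 vascular classes did not differ beyond their counting intervals. In control, Lamc1 was at 22.6 CPM in Müller glia or late progenitors, 13.2 CPM in bipolar cells and 8.05 CPM in rods, where Lama4 was between 0.649 and 0.933 CPM. In control amacrine cells Lamb1 was the higher chain, at 16.7 CPM (21 UMIs) against 7.16 CPM (9 UMIs) for Lamc1. Among other laminin chains, Lama5 was at 15.3 and 11.1 CPM and Lamb2 at 21.3 and 17.9 CPM in endothelial cells of the control and Alk1 ECKO.

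The 2 nidogens link laminin to collagen IV, and they were shared out differently. Nid1 (ENSMUSG00000005397, chr13:13437551-13512269, plus strand) was higher in mural cells, at 817 CPM in the control and 583 CPM in Alk1 ECKO, than in endothelial cells, at 330 and 292 CPM. Nid2 (ENSMUSG00000021806, chr14:19751265-19811787, plus strand) was higher in endothelial cells, at 117 and 126 CPM, than in mural cells, at 27.7 CPM (4 UMIs) and 58.4 CPM. Per Nid2 UMI there were 2.82 Nid1 UMIs in the control and 2.32 in Alk1 ECKO endothelial cells, against 9.98 (8.38 to 11.96) in Alk1 ECKO mural cells. Hspg2 (ENSMUSG00000028763, chr4:137468769-137570630, plus strand), which encodes the heparan sulphate proteoglycan perlecan, was an endothelial transcript at 328 and 323 CPM and stood at 27.7 CPM (4 UMIs) and 53.9 CPM in mural cells. After each cell had been thinned to 5000 UMIs, Hspg2 was found in 72.2% of the control and 72.4% of Alk1 ECKO endothelial cells, in 18.6% of Alk1 ECKO mural cells and in 0.526% of control rods. Cells under 5000 UMIs were left out of the thinned shares, so these describe the deeper cells: 25 of 313 control and 346 of 1262 Alk1 ECKO endothelial cells were left out, 0 and 8 mural cells, 149 and 65 Müller glia or late progenitors, and 2971 of 3731 and 411 of 461 rods. Unthinned, the Hspg2 shares were 87.9%, 81.1%, 45.9% and 0.992%, at median depths of 19253, 16134.5, 13833 and 2672 UMIs.

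Sparc (ENSMUSG00000018593, chr11:55394500-55423183, minus strand) encodes a secreted collagen-binding protein that acts as a collagen chaperone and is not itself a network component. It was the most abundant of the 10 in endothelial cells, at 3305 CPM (3270 to 3340) in the control and 3937 CPM (3917 to 3957) in Alk1 ECKO, and stood at 1476 and 1487 CPM in mural cells. It was also abundant outside the vessel wall. Microglia or macrophages held 1896 CPM in the control and 2389 CPM in Alk1 ECKO, where Sparc made up 98.8% and 98.5% of the UMIs of the 10 genes and Cdh5, an endothelial junction gene, was at 7.09 and 5.10 CPM. Müller glia or late progenitors held 753 CPM (727 to 779) and 956 CPM (893 to 1021), against 12.05 and 34.2 CPM in rods. After thinning, 88.5% of the control and 93.9% of the Alk1 ECKO Müller glia or late progenitors had a Sparc UMI, against 4.08% and 10.0% of rods.

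Col18a1 (ENSMUSG00000001435, chr10:77052178-77166548, minus strand) encodes collagen XVIII, a heparan sulphate collagen whose C-terminal fragment is the angiogenesis inhibitor endostatin. Its levels were 688 CPM (673 to 705) in the control and 326 CPM (321 to 332) in the Alk1 ECKO endothelial cells. Mural cells held 83.1 and 67.2 CPM, Müller glia or late progenitors 47.6 and 27.1 CPM, and rods 3.11 and 5.10 CPM. Astrocytes held 294 CPM (227 to 374) in the control and 193 CPM (146 to 252) in Alk1 ECKO, above the mural level in both libraries by more than the counting intervals. The gene has 2 RefSeq starts 52825 bases apart, and 3' counting does not tell which one a transcript came from. Both promoter windows are shown because they differ in letters: the upstream one, chr10:77166481-77166780, holds 3 GC boxes, in capitals, and the downstream one, chr10:77113656-77113955, holds 0 of them, 0 CCAAT boxes and 0 TATA boxes.
Col18a1 upstream start: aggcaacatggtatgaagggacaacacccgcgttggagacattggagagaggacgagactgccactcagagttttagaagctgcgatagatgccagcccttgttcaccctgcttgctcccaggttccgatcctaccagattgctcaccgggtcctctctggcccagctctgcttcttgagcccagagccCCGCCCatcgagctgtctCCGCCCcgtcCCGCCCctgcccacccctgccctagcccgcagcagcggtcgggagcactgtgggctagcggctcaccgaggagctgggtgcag
Col18a1 downstream start: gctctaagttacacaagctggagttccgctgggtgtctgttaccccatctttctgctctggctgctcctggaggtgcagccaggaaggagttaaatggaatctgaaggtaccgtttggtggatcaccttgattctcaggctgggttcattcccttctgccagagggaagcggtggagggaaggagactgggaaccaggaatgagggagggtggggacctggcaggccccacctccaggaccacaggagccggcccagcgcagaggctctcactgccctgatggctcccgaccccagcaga

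The comparison of the 2 genotypes asked which basement membrane transcripts of endothelial cells differed between the libraries. Col18a1 transcripts were lower in Alk1 ECKO and the other 9 genes differed by less than 1.5-fold. Because the median gene of the class was itself lower in Alk1 ECKO (log2 ratio -0.21 over 12497 genes with at least 30 UMIs), each log2 ratio is given relative to that median. A gene is called higher or lower from 1.5-fold, which is no test of genotype. Of the 10 genes 0 were called higher, where 10.8% of all measured genes were, and 1 was called lower, where 10.6% of all were. The count called lower was thus near the share of all genes. The median relative log2 ratio of the 10 was 0.20.

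Col18a1 had a relative log2 ratio of -0.86 (-0.91 to -0.82). Its level per cell had a median of 558 CPM (quartiles 264 and 920) in the control and 249 CPM (quartiles 79.2 and 680) in Alk1 ECKO, so that the middle ranges of the cells overlapped. After thinning to 5000 UMIs, 85.1% (80.4 to 89.0) of the control and 66.7% (63.5 to 69.8) of Alk1 ECKO endothelial cells had a Col18a1 UMI (92.0% and 82.8% unthinned, at median depths of 19253 and 16134.5 UMIs), against 1.05% of control rods. Thinning left out 25 of 313 control and 346 of 1262 Alk1 ECKO cells. Among the sub-clusters described below, those led by Mgp and by Rgs5 had a median depth under 5000 UMIs. Col18a1 was high in the former, which had 0 control cells, and low in the latter. The part of these cells in the thinned values was not tested. Sparc stood at 0.46 (0.45 to 0.48) above the median gene, short of 1.5-fold. Its per-cell median was 3379 CPM (quartiles 2427 and 4311) in the control and 4183 CPM (quartiles 3073 and 5443) in Alk1 ECKO. The 2 collagen IV chains differed from each other, with 0.21 (0.19 to 0.23) for Col4a1 and -0.06 (-0.08 to -0.03) for Col4a2. Among the laminin chains the ratio was -0.05 for Lama4, 0.36 for Lamb1 and 0.28 for Lamc1. It was 0.03 for Nid1, 0.31 for Nid2 and 0.19 for Hspg2.

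The call for Col18a1 depended on how cells were weighted and on which cells were kept. In the mean of per-cell CPM its relative log2 ratio was -0.19 and after thinning to 5000 UMIs it was -0.53, both short of 1.5-fold. When sub-clusters were each given the same weight in both libraries it was -0.56, and 0 of the 10 genes were called (9.09% of all genes were called higher and 10.1% lower).

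**Figure D2:**
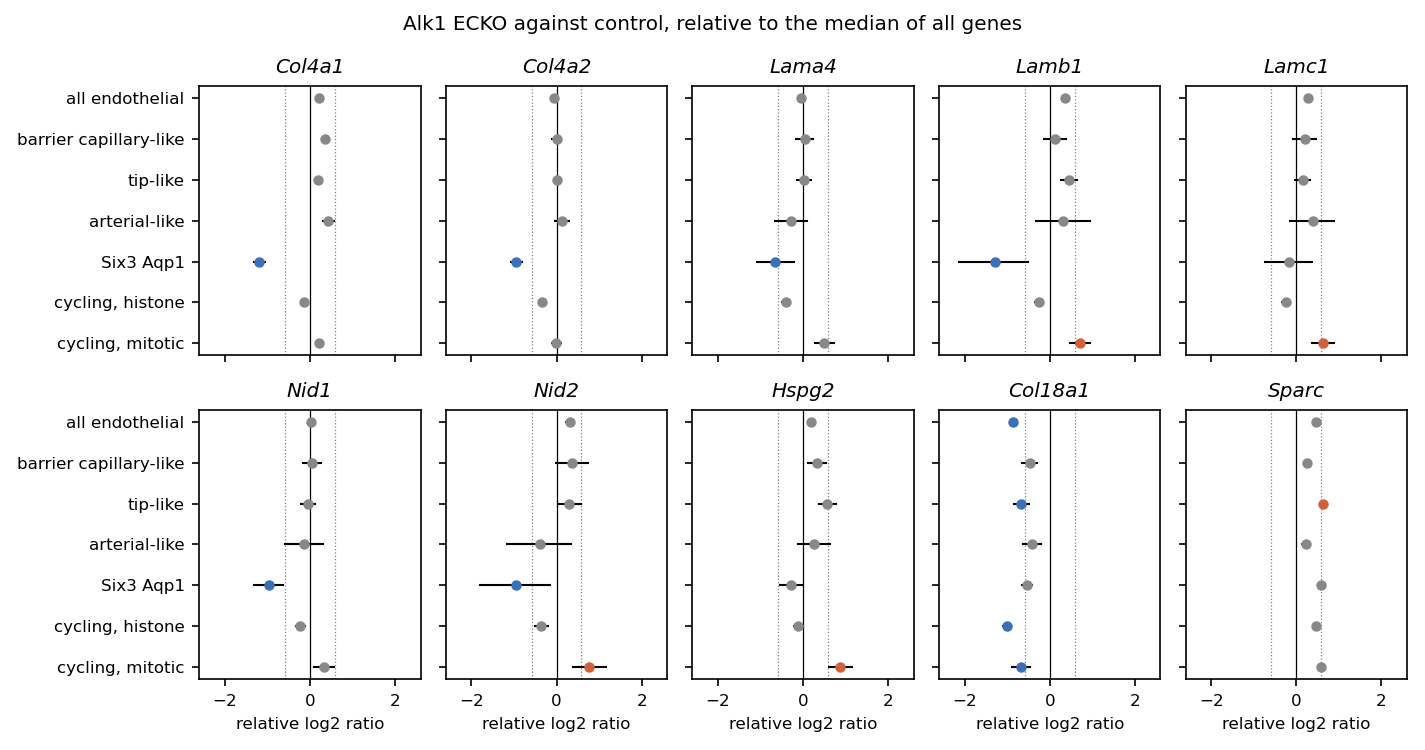
Log2 ratio of Alk1 ECKO over control, relative to the median measured gene, for each gene in all endothelial cells and in the 6 sub-clusters with at least 20 cells in each library; bars are 95% counting intervals, dotted lines mark 1.5-fold, red is called higher and blue lower. Col18a1 lies left of 0 and Sparc right of 0 in all 6 sub-clusters, and 6 genes are called lower in the Six3 Aqp1 sub-cluster.

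Endothelial cells were divided into sub-clusters without using the 10 genes, and 6 sub-clusters had at least 20 cells in each library. A barrier capillary-like sub-cluster, with Mfsd2a and Slco1c1 among its leading genes, had 136 control and 29 Alk1 ECKO cells. A tip-like sub-cluster (Esm1, Kcne3, Apln) had 27 and 209, an arterial-like one (Cxcl12, Bmx, Gja4) 22 and 20, and an unnamed one led by Aqp1, Six3 and Slco1a4 21 and 29. There were 2 cycling sub-clusters, led by histone genes with 58 and 182 cells and by mitotic genes such as Ccnb1 and Plk1 with 28 and 65. A further sub-cluster led by Mgp, Aqp1 and Six3 had 0 control and 181 Alk1 ECKO cells. Its leading genes held 4 arterial markers, such as Fbln2, Bmx and Sema3g, and 3 of the MHC class II list, such as Cd74. The remaining 3 sub-clusters had too few control cells for a ratio. A sub-cluster led by Apod, Slc38a5 and Trf had 5 control and 257 Alk1 ECKO cells, one led by Rgs5 and cycling genes 13 and 158, and one led by Apod, Rarres1 and Trf 3 and 132. In their Alk1 ECKO cells Col18a1 was at 381, 115 and 159 CPM, Col4a1 at 2602, 1155 and 2222 CPM and Sparc at 4896, 2115 and 4614 CPM, at median depths of 31030, 2619 and 5124.5 UMIs per cell. These cells enter the values of the endothelial class above, while the comparison with equal sub-cluster weights used only the 6 shared sub-clusters, with 292 control and 534 Alk1 ECKO cells.

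Col18a1 varied more over these sub-clusters than between the libraries. In control it was highest in the Six3 Aqp1 sub-cluster, at 2467 CPM (2333 to 2607), then arterial-like at 1145 CPM (1056 to 1240), barrier capillary-like at 729 CPM (702 to 756), and between 382 and 476 CPM in the cycling and tip-like ones. The first 3 stood in the same order in Alk1 ECKO at lower levels, 1774, 848 and 523 CPM. The Mgp and MHC class II sub-cluster, which had 0 control cells, stood at 2250 CPM (2140 to 2364), above the Six3 Aqp1 sub-cluster of its own library. Its cells were shallow, with a median of 2342 UMIs, against 13530 UMIs in the Six3 Aqp1 cells of both libraries. Per cell, the lower quartile of the Six3 Aqp1 sub-cluster in control (1609 CPM) lay above the upper quartile of its arterial-like cells (1395 CPM). Within sub-clusters the relative log2 ratio of Col18a1 was below 0 in 6 of 6, with the counting interval below 0 in each. It ranged from -1.001 (-1.09 to -0.91) in the histone-led cycling cells to -0.42 (-0.62 to -0.21) in the arterial-like cells, and 3 of the 6 were past 1.5-fold: the 2 cycling ones and the tip-like one (-0.66). Sparc was above 0 in 6 of 6, from 0.23 (0.14 to 0.31) in arterial-like cells to 0.63 (0.57 to 0.70) in tip-like cells, the 1 sub-cluster where it was called. It was above 0 outside endothelial cells too, at 0.46 (0.38 to 0.55) in microglia or macrophages. In Müller glia or late progenitors Sparc was at 0.52, in rods at 1.67 and in mural cells at 0.02. The part of a shift common to cell classes was not tested.

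Among the 6 sub-clusters, the Six3 Aqp1 one had the lowest ratio for Col4a1, Col4a2, Lama4, Lamb1, Nid1, Nid2 and Hspg2, but not for Lamc1, Col18a1 or Sparc. There 6 of the 10 genes were called lower, where 15.2% of all measured genes were, and 0 were called higher, where 13.7% were. Col4a1 was at 2789 CPM in the control and 1273 CPM in Alk1 ECKO (-1.19, -1.32 to -1.06). Its per-cell median was 2504 CPM (quartiles 1998 and 2782) in the 21 control cells and 1242 CPM (quartiles 813 and 1536) in the 29 Alk1 ECKO cells, so that the middle ranges did not overlap. A single control cell held 25.7% of the control Col4a1 UMIs. Col4a2 was at 2231 and 1210 CPM (-0.94), Nid1 at 363 and 194 CPM (-0.96), Lama4 at 197 and 131 CPM (-0.65), Lamb1 at 80.0 and 33.9 CPM (-1.30) and Nid2 at 66.3 and 35.5 CPM (-0.96). Lamb1 and Nid2 rested on 41 and 34 control UMIs. Sparc went the other way, from 4423 to 6901 CPM (0.58), with per-cell medians of 4583 and 6793 CPM.

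In the mitotic sub-cluster 4 genes were called higher, Lamb1 (0.71), Lamc1 (0.62), Nid2 (0.77) and Hspg2 (0.87), where 16.0% of all measured genes were, and Col18a1 was called lower, where 14.7% were. Tip-like cells had Sparc called higher (15.6% of all genes) and Col18a1 called lower (14.2%). The histone-led cycling cells had 0 called higher (9.53% of all) and Col18a1 called lower (9.82%). Barrier capillary-like and arterial-like cells had 0 of the 10 called in either direction, where 7.25% and 9.5% of all genes were called higher and 12.7% and 13.1% lower. Differences between sub-clusters in these ratios were not tested.

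**Figure D3:**
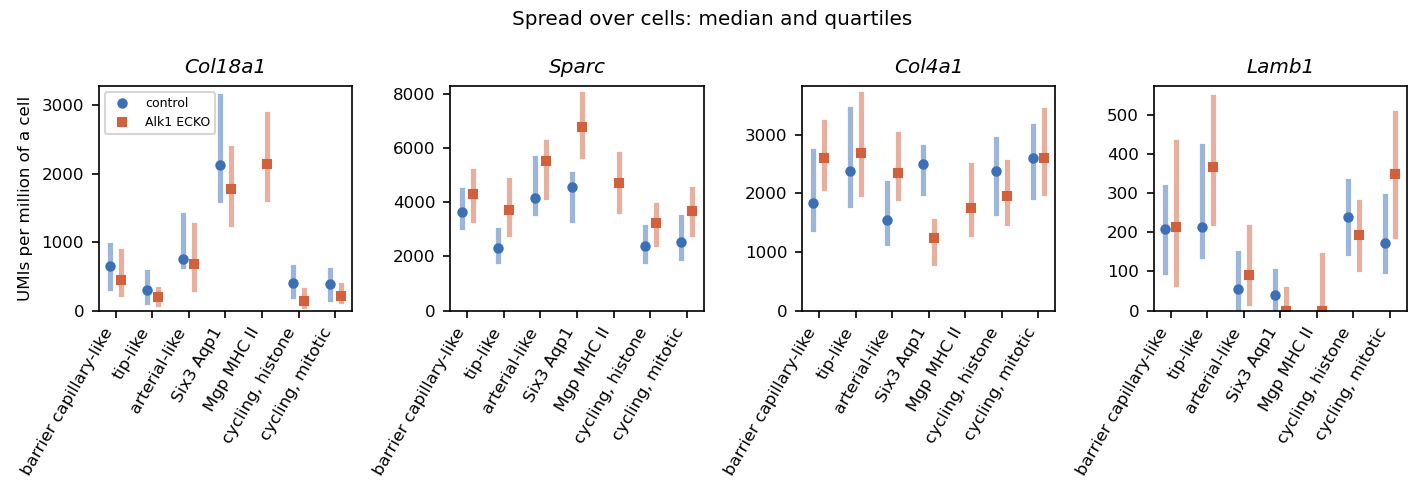
Median (symbols) and quartiles (bars) of the level per cell, in CPM of a cell, for 4 genes in 7 endothelial sub-clusters with at least 20 cells per library shown; blue is control and red Alk1 ECKO. Col18a1 is highest in the Six3 Aqp1 and the Mgp MHC II sub-clusters, and Col4a1 in the Six3 Aqp1 sub-cluster has quartile ranges that do not overlap between libraries.

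Tip cells lead new sprouts, and their Lamb1, Lamc1 and Nid2 levels were the highest among the non-cycling sub-clusters of Alk1 ECKO. Lamb1 was at 414 CPM (400 to 427) in Alk1 ECKO tip-like cells, against 278 CPM (235 to 327) in barrier capillary-like, 118 CPM in arterial-like and 33.9 CPM in Six3 Aqp1 cells. Lamc1 followed with 352, 248, 177 and 98.4 CPM and Nid2 with 186, 131, 70.7 and 35.5 CPM. In control the same order held for these 3 genes between tip-like (322, 338 and 161 CPM) and barrier capillary-like cells (255, 218 and 102 CPM). Hspg2 did not follow it: among the 6 sub-clusters its highest control level was in the Six3 Aqp1 one at 480 CPM (422 to 544), above the tip-like cells at 263 CPM (229 to 300). Col4a1 was similar over the tip-like, barrier capillary-like and mitotic cells of Alk1 ECKO, at 2959, 2837 and 2916 CPM, and lower in the Mgp and MHC class II sub-cluster at 1760 CPM.

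The ratio of the 2 collagen IV transcripts shows how far the chains moved together. There were 1.60 Col4a1 UMIs per Col4a2 UMI (1.57 to 1.63) in the control and 1.92 (1.90 to 1.94) in Alk1 ECKO endothelial cells, and 2.04 (1.79 to 2.33) and 2.48 (2.38 to 2.58) in mural cells. The ratio was higher in Alk1 ECKO in the barrier capillary-like cells (1.504 and 1.93), tip-like cells (1.80 and 2.01), arterial-like cells (1.45 and 1.79), histone-led cycling cells (1.71 and 1.98) and mitotic cells (1.80 and 2.11). In the Six3 Aqp1 sub-cluster it was lower, with a counting interval of 1.16 to 1.35 in the control and of 0.951 to 1.16 in Alk1 ECKO, and the Mgp and MHC class II sub-cluster was near it at 1.14. These are ratios of captured 3' ends and not of chains.

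**Figure D4:**
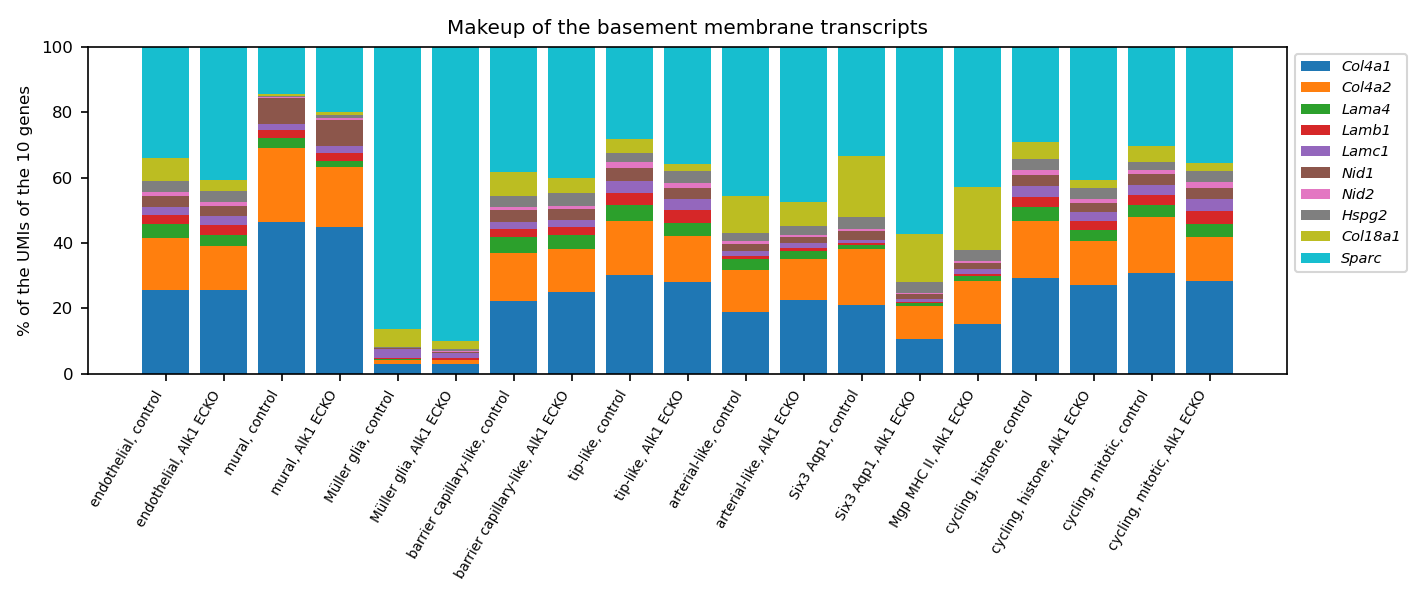
Share of each gene in the summed UMIs of the 10 genes (stacked bars, percent, 100% in all) for endothelial, mural and Müller glia or late progenitor cells and 7 endothelial sub-clusters in each library. Gene by gene, Sparc has the largest share in the endothelial class and most of the sum in Müller glia or late progenitors. Col4a1 has the largest share in mural cells, and exceeds Sparc in the tip-like and cycling sub-clusters of the control. Col18a1 takes its largest shares in the Six3 Aqp1 and Mgp MHC II sub-clusters.

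As shares of the 10 genes' UMIs, Sparc made up 34.0% in the control and 40.8% in Alk1 ECKO endothelial cells and Col18a1 7.08% and 3.38%. Col18a1 reached 18.7% and 14.7% in the Six3 Aqp1 sub-cluster and 19.3% in the Mgp and MHC class II sub-cluster. In mural cells Col4a1 made up 46.4% and 45.0%, and Nid1 7.92% and 7.86%.

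In mural cells the comparison between the libraries rested on 11 control cells with 144349 UMIs, so that 1 cell could carry a value. Of the 10 genes 2, Col4a2 and Lama4, were called lower in Alk1 ECKO, where 21.0% of all measured genes were, and 2 called higher, where 22.7% were, so that both counts were near the share of all genes. Col4a2 had a relative log2 ratio of -0.79 (-0.95 to -0.63) and Lama4 of -1.02 (-1.47 to -0.53), the latter on 44 control UMIs. Per cell, Col4a1 had a median of 5016 CPM (quartiles 3219 and 5841) in the control and 3195 CPM (quartiles 2178 and 4514) in Alk1 ECKO, and its ratio of -0.51 (-0.62 to -0.40) was short of 1.5-fold. Nid2 (1.08, -0.30 to 2.98) and Hspg2 (0.97, -0.42 to 2.86) were called higher from 4 control UMIs each, all 4 of Hspg2 in 1 cell, and their intervals include 0. Sparc was level, at 0.02 (-0.18 to 0.23). The endothelial marker list summed to 776 and 847 CPM in these cells, with Cdh5 and Pecam1 at 0 UMIs in the control and at 1 and 2 UMIs in Alk1 ECKO. The mural marker list itself summed to 19675 CPM in the control and 12987 CPM in Alk1 ECKO. Its part in the lower Col4a2 and Lama4 levels was not tested.

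In Müller glia or late progenitors, the radial glia of the retina and their precursors, 5 of the 10 genes were measured. There Col18a1 was called lower (-0.63, -1.29 to -0.03; 204 control and 25 Alk1 ECKO UMIs), where 14.5% of all measured genes were, and 0 were called higher, where 8.59% were. Its share of cells after thinning was 19.5% (16.1 to 23.3) in the control and 12.1% (6.42 to 20.2) in Alk1 ECKO, with intervals that overlap; unthinned it was 24.8% and 14.0%, at median depths of 6320 and 5561.5 UMIs. Sparc was at 0.52 (0.42 to 0.63), short of 1.5-fold. Col4a1 (0.41), Col4a2 (0.56) and Lamc1 (-0.39) had intervals that include 0. The rods of the same libraries moved as well: their Sparc level was 12.05 and 34.2 CPM and their Col4a1 level 8.43 and 15.3 CPM. The glial Sparc level was 62.5 times that of rods in the control and 27.9 times in Alk1 ECKO. The part of free RNA in the glial ratios was not tested.

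Astrocytes guide the growing retinal vessels, and their class held 24 control and 36 Alk1 ECKO cells. Of 7 measured genes 6 were called higher in Alk1 ECKO, where 15.5% of all measured genes were, and 0 lower, where 16.9% were, and 1 cell held most of the UMIs of each of the 6. This cell held 56.8% of the Sparc, 90.6% of the Hspg2, 90.9% of the Col4a1, 90.4% of the Col4a2, 96.9% of the Lamb1 and 96.8% of the Nid1 UMIs of the class, and 79.4% of its endothelial marker UMIs. Without the cell richest in endothelial markers in each library, Col4a1 was at 66.2 CPM in the control and 71.9 CPM in Alk1 ECKO and Col4a2 at 52.0 and 52.7 CPM. The endothelial marker list still summed to 118 and 661 CPM. With those cells left out, Col18a1 (293 and 177 CPM, a relative log2 ratio of -0.68) and Sparc (322 and 1102 CPM, 1.82) remained measured, Sparc still called higher (14.8% of all genes) and Col18a1 now called lower (15.3%). The Sparc difference rests on 68 control and 230 Alk1 ECKO UMIs. Over the whole class the microglia or macrophage markers summed to 22.2 CPM (3 of 14 detected, with C1qa and Csf1r at 0) in the control and 524 CPM (12 of 14) in Alk1 ECKO, and the mural markers to 307 CPM (6 of 16, with Pdgfrb and Kcnj8 at 0) and 956 CPM (14 of 16). The part of endothelial, microglial and mural transcripts in the Sparc difference was not tested.

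Other genes of the same pathway were taken from lists, and the same measures are given for endothelial cells. Each count of genes called stands against 10.8% of all measured genes called higher and 10.6% called lower, with a median of 0 for all genes by construction. Of 32 other basement membrane components 23 were measured, 6 were called higher and 5 lower, with a median relative log2 ratio of -0.03. Hmcn1, which encodes the matrix protein hemicentin, was at 216 CPM in the control and 105 CPM in Alk1 ECKO (-0.83). Agrn, the gene for the heparan sulphate proteoglycan agrin, was at 150 and 85.0 CPM (-0.61). Its ratio was -1.04 in mural cells and -0.03 in Müller glia or late progenitors. Col15a1, which encodes the collagen closest in structure to collagen XVIII, was at 253 and 164 CPM (-0.41). The small proteoglycan gene Bgn (0.69) and Sparcl1 (0.64), a relative of Sparc at 1158 and 1562 CPM, were called higher. Vwa1 was at 0.36, and Fn1, which encodes fibronectin, at -0.39 (629 and 413 CPM).

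Of 23 receptor genes 20 were measured, 6 were called higher and 2 lower, with a median of 0.08. Bcam, a receptor for laminin alpha 5, was at 0.99 and Mcam, a receptor for laminin 411, at 0.49, while the integrin subunits Itgb1 (952 and 877 CPM), Itga6 and Itga2 were at 0.09, -0.30 and -0.67. All 26 genes of collagen and laminin biosynthesis were measured, 3 were called higher and 1 lower, with a median of 0.12. Ppib, a prolyl isomerase of the endoplasmic reticulum, was at 0.67, and Serpinh1, the collagen chaperone HSP47, at 0.46 (725 and 859 CPM), while Mia3, which helps procollagen leave the endoplasmic reticulum, was at -0.46. In Müller glia or late progenitors Ppib was at 0.75 and in mural cells at 0.26. Of 18 crosslinking and sulphation genes 13 were measured, 3 higher and 1 lower, with a median of -0.03. Pxdn, which encodes the peroxidasin that crosslinks collagen IV, was at 0.22 and Loxl2, a lysyl oxidase, at 0.33. Of 32 protease and inhibitor genes 26 were measured, 8 were called higher (10.8% of all genes) and 1 lower (10.6%), with a median of 0.31. The 1 called lower was the serine protease gene Htra1 (115 and 43.7 CPM, -1.18). Htra1 was also lower outside endothelial cells, at -1.21 in mural cells and -1.26 in Müller glia or late progenitors. It was among the leading genes of the barrier capillary-like, Six3 Aqp1 and arterial-like sub-clusters. The part of sub-cluster makeup in its ratio was not tested. Plaur, the urokinase receptor, was at 1.21 and Ctsl, a cathepsin, at 0.77. In Müller glia or late progenitors Ctsl was at 0.82 and in mural cells at -0.41. Serpine2 was at 1.43, from 8.66 to 20.2 CPM, and its level in mural cells was 1351 and 999 CPM; the part of mural transcripts in it was not tested. Of the TGF-beta response list 18 of 19 genes were measured, 5 called higher and 2 lower, with a median of 0.26, Pmepa1 at 1.12 and Ccn2 at 1.07. Among its genes of at least 20 CPM in 1 library, the lowest were Tgfb2 (-0.41), Fn1 (-0.39) and Skil (-0.22). Pmepa1 was at 0.72 in mural cells and 0.36 in Müller glia or late progenitors, and Ccn2 at 1.10 and -0.37. Of 20 fibrillar and interstitial matrix genes 7 were measured, 2 called higher and 1 lower, with a median of 0.43; Col5a2, a fibrillar collagen chain, was at 55.5 and 35.1 CPM (-0.45).

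The genes whose levels followed the mean of the 10 most closely were Fkbp10, an endoplasmic reticulum prolyl isomerase for collagen, Lrrc8c, a subunit of volume-regulated anion channels, the actin crosslinker Actn4, the caveolar coat gene Cavin1 and Fn1. Pearson correlations of log2(CPM + 10) ran from 0.991 for Fkbp10 to 0.985 for Fn1, among 7601 genes. They were taken over 19 units with at least 50 cells. A unit was a class in 1 library or, for endothelial cells, a sub-cluster in 1 library, and mural cells entered only from Alk1 ECKO. These units share their libraries and differ in depth, and many are parts of the same endothelial class, so the values are a description. Between pairs of the 10 genes the correlation over the same units was 0.994 for Col4a1 with Col4a2, 0.992 for Col4a1 with Nid1, and 0.711 for Lamb1 with Sparc, the lowest.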

How the data were processed

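Per the labels' protocols, CD31-enriched retinal cells went through 10x Genomics 3' chemistry (v3.1), 1 library for each genotype. The deposited files are unnormalised UMI counts, produced by the authors with Cell Ranger 5.0.1 per the file headers; the submitters' processing notes list version 6.1.1 of Cell Ranger, version 0.11.9 of FastQC, and mm10. The sources used here do not say whether intronic reads were counted. The members and gene lists were chosen with earlier results of these data known.

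Retained cells had at least 1000 UMIs and 500 genes, with mitochondrial UMIs at 10% or less (7909 control, 4237 Alk1 ECKO). Scrublet in scanpy 1.11.5 called 0 and 2 doublets by its own threshold, so the highest scores were removed at 0.8% per 1000 cells (500 and 144 cells), which left 7409 and 4093. Both libraries were clustered together with Leiden (leidenalg 0.10.2, resolution 1.0, 3000 variable genes, 30 components, 15 neighbours), and endothelial cells again at 0.6, without the 10 genes. Clusters were named from at least 3 fixed markers among their top 20 genes; rules for setting clusters aside (mitochondrial median under 1%, doublet score over 0.12, 2 markers of another class in the top 10) were written with the clusters in view. Class names may therefore differ from the study's own. An endothelial sub-cluster with at least 3 markers of the MHC class II list was named for these, unless cycling markers were the most frequent.

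UMIs were summed per class and library as CPM. A gene was measured with at least 30 UMIs over both libraries, and called from 1.5-fold relative to the median gene of the class. Against 0 UMIs a floor of 3 counts per library was used. Sub-clusters were compared with at least 20 cells per library. Cells were not used as replicates for any test. Interval code was checked on simulated counts. In each list, the genes to name were picked among those of at least 20 CPM in 1 library: the 3 highest, 3 lowest and 3 most abundant. The text gives only some of the genes that were picked. A gene that this rule names is not reported here. Promoters and gene positions came from RefSeq (GRCm38.p6) and GENCODE vM21.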

Additional observations from a re-analysis of the deposited data

Results flagged for a closer look

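Col4a2 was called in opposite directions in 2 classes under the same contrast, with a relative log2 ratio of 3.08 in astrocytes and -0.79 in mural cells; this difference was not tested. The astrocyte value rests on 1 Alk1 ECKO cell with 75880 UMIs, 533 of them from endothelial markers, which held 70.0% of the UMIs of the 10 genes in its class. Without the cell richest in endothelial markers in each library, astrocytes had 11 Col4a2 UMIs in control and 11 in Alk1 ECKO, too few to be measured.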

How the results depend on the processing

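No paired analysis was possible because each genotype had 1 library. The count of the 10 genes called in endothelial cells was 1 in the analysis above. It became 3 (2 higher, 1 lower) at a fold limit of 5/4, where 24.8% of all genes were called higher and 23.9% lower. It became 2 without the cycling sub-clusters (11.7% and 12.3%) and 0 at 2-fold (3.88% and 3.21%). It was also 0 with the mean of per-cell CPM (10.9% and 12.1%) and after thinning to 5000 UMIs (9.56% and 10.8%). Giving each sub-cluster the same weight in both libraries left 0 as well (9.09% and 10.1%). In Müller glia or late progenitors the count was 1 of 5. It became 5 (3 higher, 2 lower) at a fold limit of 5/4, where 23.0% of all genes were called higher and 26.9% lower. It became 3 at a limit of 5% mitochondrial UMIs (9.69% and 14.7%), and 2 after thinning (9.92% and 15.6%) or without doublet removal (8.77% and 14.6%). It became 0 at 2-fold (1.28% and 5.74%) or with the mean of per-cell CPM (10.4% and 15.7%). In mural cells the count of 4 became 7 (2 higher, 5 lower) at a fold limit of 5/4, where 33.02% of all genes were called in each direction, 5 after thinning (22.5% higher and 21.5% lower) and 2 at 2-fold (12.4% and 9.16%). In astrocytes the count of 6 became 2 without the cell richest in endothelial markers in each library, a setting chosen after the data had been seen, as was adding the endothelial sub-cluster with mural markers, which left 1 called. Under the 16 alternatives run for endothelial cells, the relative log2 ratio of Col18a1 ranged from -1.08 to -0.19 and that of Sparc from 0.25 to 0.53. Leaving out endothelial cells with at least 2 UMIs of the shorter set of mural markers left 1 gene called. Median-of-ratios scaling moved all endothelial log2 ratios by 0.17 against CPM. The 11 control mural cells and 24 control astrocytes set the depth limit for those classes.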

Other observations

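A cluster with endothelial markers and a median mitochondrial share of 0.404% was kept out of the endothelial class. It had 0 control and 1189 Alk1 ECKO cells, with a median of 1854 UMIs. Its Sparc level was 3871 CPM, close to the 3937 CPM of the Alk1 ECKO endothelial class, while Col4a1 was at 344 CPM against 2475 CPM, Col4a2 at 257 CPM against 1291 CPM, Nid1 at 32.6 CPM against 292 CPM and Lamb1 at 47.4 CPM against 290 CPM. C1qb and Hmox1, transcripts of macrophages, were among its leading genes.

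Basement membrane components outside the 10 genes had other homes in the retina. Col4a5, which encodes another collagen IV chain, was at 30.3 CPM in the control and 28.2 CPM in Alk1 ECKO Müller glia or late progenitors and at 0.769 and 0.501 CPM in endothelial cells. Lama1, a laminin alpha chain of the inner limiting membrane, was at 25.9 and 15.2 CPM in Müller glia or late progenitors and at 2.40 and 5.41 CPM in endothelial cells. Col15a1, Hmcn1 and Vwa1 were endothelial, at 0 UMIs each in the 11 control mural cells. Fn1 had its highest level in astrocytes, at 2510 CPM in the control and 1462 CPM in Alk1 ECKO. These genes were picked for this paragraph after their values had been seen.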
